A study of Rattus norvegicus with 4 samples.

Results

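The comparison set the library of cells transfected with miR-93 against that of cells transfected with miR-106b, without the control library, and its members are the genes with an RPKM above 1.0 in both. RPKM is a read count corrected for gene length and for library size. Of the 15731 genes listed, 11391 were above this limit in both libraries, 193 only with miR-106b, 257 only with miR-93 and 3890 in neither. The cells were neonatal Wistar rat ventricular cardiomyocytes, heart muscle cells that carried no genetic change, and each culture received 1 synthetic mimic. The mimics carried the human sequences hsa-miR-106b-5p and hsa-miR-93-5p, here compared, as well as hsa-miR-25-3p, and the control was the worm miRNA cel-miR-67. The pups were 1 day old, although the treatment label gives the day of birth. All cultures were transfected with Lipofectamine RNAiMAX and their RNA was taken at 72 h, and the mimic dose is 25 nM in one label and is given in mM in the methods. Each mimic had 1 library, so the spread between cultures was not measured, no test was possible, and every difference is one between these libraries. Non-myocytes were reduced by pre-plating and not by a sort, and the cultures were primary cells whose number of pups per library is not given in the sources used here.

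MicroRNAs guide Argonaute proteins to messenger RNAs, mainly through pairing of the seed, the bases near the 5′ end, with sites in the 3′ end of the transcript, and the targeted transcript is then repressed or degraded. miR-106b and miR-93 belong to the miR-17 seed family, which is known for targeting inhibitors of the cell cycle such as Cdkn1a and the pocket protein Rbl2. In the heart, the shift between growth by division and growth by enlargement around birth is accompanied by changes in fetal genes such as those of the natriuretic peptides. Sequences outside the seed can add pairing, so 2 miRNAs with a shared seed share many predicted targets without being interchangeable.

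The mature rat sequences are shown because they hold what is shared and what differs. They come from RefSeq on build GRCr8, are written 5′ to 3′, and carry the seed, bases 2 to 8, in capitals, while the letters of the mimics themselves were not given in the sources used here. The first lies at chr12:22157103-22157123 and the second at chr12:22156894-22156916, both on the minus strand.
rno-miR-106b-5p: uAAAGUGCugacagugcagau
rno-miR-93-5p: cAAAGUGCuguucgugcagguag
rno-miR-25-3p: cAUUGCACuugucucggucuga
Counted from 1 at the 5′ end, the first pair was identical at 16 of 21 positions compared without gaps, and the 5 differences, written from miR-106b to miR-93, were U1C, A11U, C12U, A13C and A20G. The run of shared bases covered positions 2 to 10, a second run covered 14 to 19, and miR-93 had 2 further bases at its 3′ end. In the RefSeq table the seed AAAGUGC was shared with rno-miR-17-5p, rno-miR-20a-5p and rno-miR-20b-5p, whereas miR-25, from the same cluster, had the seed AUUGCAC.

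The whole counts behind the RPKM values were recovered for all 15731 genes. The methods say that gene counts were rounded before the RPKM step, so these are rounded counts, called reads here. The library sizes lay between 22674410 and 29749467 reads, although the methods give a much smaller number of reads per sample. Of the reads, 60.4% to 66.9% fell on the listed genes, and mitochondrial genes held 4.51% to 6.17% of the reads on listed genes. The median member had 596 reads with miR-106b and 545 with miR-93, which gave a 95% exact (Clopper-Pearson) interval of its log2 ratio of about ± 0.17. Members with an RPKM between 1 and 1.2 with miR-106b had a median of 90 reads there and an interval of about ± 0.43. These intervals cover counting error only. All 16 listed cardiomyocyte markers were above 1.0 RPKM in both libraries, and their summed RPKM was 17312 under miR-106b against 14565 under miR-93. Myl2, a gene of 480 bases, alone held 7223 and 4994 of these sums. The summed RPKM of 15 fibroblast markers was 729 and 848, of 14 smooth muscle and pericyte markers 1321 and 1094, and of 13 mesothelial and epicardial markers 59.8 and 65.6. The smooth muscle sum was lower with miR-93 although 7 of the 12 markers above the limit had a ratio above 1. That of 15 endothelial markers was 32.4 and 37.1, of 18 macrophage and leukocyte markers 34.3 and 37.9, of 9 Schwann and neural markers 15.6 and 15.3, and of 6 erythroid markers 9.30 and 11.5. In such bulk samples, fewer cells of a type and less RNA per cell cannot be told apart, and the part of the cell composition in the differences below was not tested.

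Most genes were at a like level with both mimics. The ratio of RPKM values, miR-93 over miR-106b, passed 1.3-fold upward for 831 genes (7.30% of those compared) and downward for 935 genes (8.21%), and stayed within 1.3-fold for 9625 genes (84.5%). The median log2 ratio over all members was 0.00 and its SD 0.31. Differences beyond counting error, with an interval that leaves out 0, were seen for 754 of the higher genes (6.62% of those compared) and 865 of the lower genes (7.59%). With the reads on listed genes as library size, which shifted every log2 ratio by 0.06, 1190 genes were higher and 706 lower. Among 10665 genes of 600 bases or more, 763 (7.15%) were higher and 700 (6.56%) lower. Among 726 shorter genes, 68 (9.37%) were higher and 235 (32.4%) lower. The lower side held the larger differences: 88 genes were more than 2-fold lower with miR-93 and 11 more than 4-fold lower, against 31 and 0 genes in the other direction. It also held more of the abundant genes, since among 231 genes with a mean RPKM above 200, 57 (24.7%) were lower and 5 (2.16%) higher, while among 1133 genes with a mean RPKM between 1 and 2, 113 (9.97%) were lower and 161 (14.2%) higher. Ribosomal protein genes, whose values are called uncertain below, were not set apart in these counts. Just inside the limit were AABR07021022.1, Trpm4 and Nrtn, with a smaller RPKM of 1.00 each, and just outside were Arhgap8, Atp2b4 and Krt17, with a smaller RPKM of 0.999, 0.998 and 0.998.

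**Figure D1:**
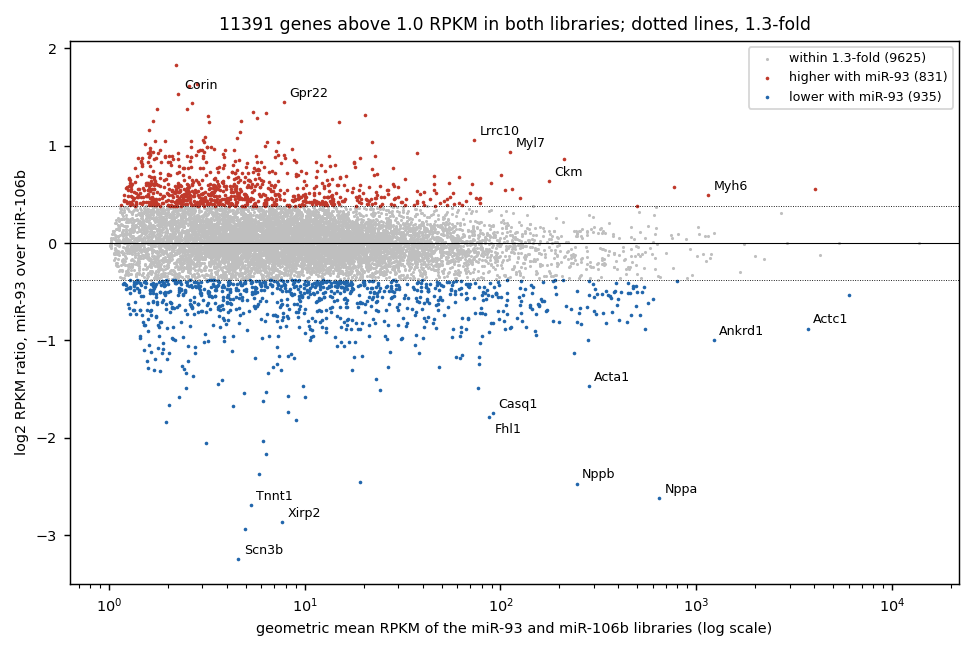
Log2 RPKM ratio of miR-93 over miR-106b (vertical axis) against the geometric mean RPKM of both libraries (horizontal axis, log scale) for the 11391 genes, with 1 point per gene and dotted lines at 1.3-fold. Points below the lower line (935 genes) reach to -3.24 for Scn3b and include abundant heart muscle genes such as Nppa, Nppb, Acta1, Ankrd1 and Actc1, while the points above the upper line (831 genes) include Corin at 1.53 and Lrrc10 at 1.06.

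Natriuretic peptide genes separated the mimics most among abundant genes. Nppa, which encodes atrial natriuretic peptide, had an RPKM of 1607 under miR-106b against 261 under miR-93, beside 4425 under miR-25 and 1860 in the control. Nppb, which encodes B-type natriuretic peptide, had 578, 104, 673 and 636 in the same order. For both genes the miR-93 library stood alone at the bottom, while miR-106b lay close to the control. The log2 ratio was -2.62 (95% exact interval -2.66 to -2.58) for Nppa, a level 6.15-fold lower with miR-93, and -2.47 (-2.57 to -2.37) for Nppb, 5.55-fold lower. Corin, the protease that activates these peptides, was chosen after its values were seen and was on the other side, with an RPKM of 1.33 under miR-106b against 3.85 under miR-93 from 147 and 390 reads and a log2 ratio of 1.53. Npr3, a receptor that clears the peptides, was also higher with miR-93, at 12.3 against 7.96 RPKM. Over the list of natriuretic peptide and hypertrophy genes, 7 of 18 members above the limit were lower (38.9%) and 2 were higher (11.1%), against 8.21% and 7.30% of all genes. The median log2 ratio was -0.17, beside 0.00 over all genes. This list shares members with others, such as Xirp2 with the sarcomere list below.

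The next lowest genes were of muscle structure, calcium storage and stress. Fhl1, a LIM protein of the sarcomere that responds to biomechanical load, had an RPKM of 163 under miR-106b against 47.3 under miR-93, beside 263 under miR-25 and 259 in the control. Casq1, the skeletal calsequestrin that stores calcium in the sarcoplasmic reticulum, had 167, 49.8, 373 and 127 in the same order. Rcan1, a regulator of calcineurin, had 75.8, 31.4, 122 and 158. In each of these the miR-93 library was the lowest of the 4, and the log2 ratios to miR-106b were -1.79, -1.74 and -1.27. Stk38l, a kinase of the NDR family, was at 11.1 RPKM under miR-93 against 27.3 under miR-106b, and Tnfrsf12a, the receptor of the cytokine TWEAK, at 50.7 and 120. Enah, an Ena/VASP protein of actin filament growth, was at 14.3 and 37.7, with a control value of 89.3. The predicted gene LOC100912195 had another order, with 40.9 RPKM with miR-106b against 14.4 with miR-93, 18.7 under miR-25 and 19.8 in the control, so that the miR-106b library was the highest.

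**Figure D2:**
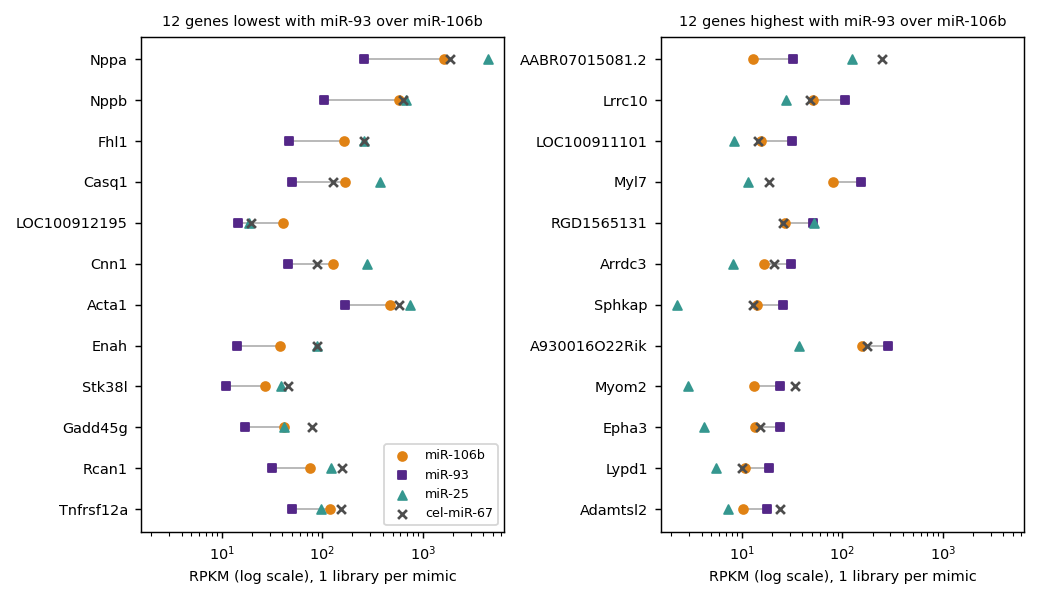
RPKM (log scale) in each of the 4 libraries, 1 point per library, for the 12 genes lowest and the 12 genes highest with miR-93 over miR-106b among unique symbols with RPKM above 10 in both, with a grey line joining those 2 libraries. In the left panel all 12 genes had their lowest value with miR-93, and Nppa and Nppb show the longest lines (1607 to 261 and 578 to 104 RPKM); in the right panel miR-25 held the lowest value for 10 of the 12 genes.

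Many sarcomere genes were lower with miR-93, and 3 were higher. The thick and thin filament list also held other muscle genes, such as Myom2 of the M-band and Xirp2 of the intercalated disc. Of its 37 members above the limit, 16 were lower (43.2%, against 8.21% of all genes) and 3 higher (8.11%), and the median log2 ratio was -0.35. Acta1, the skeletal alpha-actin of the fetal heart, had an RPKM of 471 under miR-106b against 170 under miR-93, beside 738 under miR-25 and 587 in the control. Xirp2, an actin-binding protein of the intercalated disc, had 20.6, 2.82, 48.7 and 63.0 in the same order, and Lmod2, which elongates thin filaments, 117, 52.0, 78.3 and 167. All 3 were lowest with miR-93, at log2 ratios of -1.47, -2.87 and -1.17. Tnnt1, the slow skeletal troponin T, differed in another way, since it had 13.5 RPKM under miR-106b against 2.08 under miR-93 but 0.158 under miR-25 and 0.228 in the control, so that both mimics of the seed family stood above the other libraries. Csrp3, a Z-disc LIM protein, was at 352 under miR-106b against 161 under miR-93, and Tcap, the titin cap, at 29.6 and 15.3. The 3 genes on the other side were Myh6, the alpha myosin heavy chain, at 968 and 1362 RPKM, Myom2, an M-band protein, at 13.4 and 23.8, and Myl7, the atrial regulatory light chain, at 81.2 and 155.

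Myosin light chains differed in direction. Myl7 had an RPKM of 81.2 under miR-106b against 155 under miR-93, above 11.6 under miR-25 and 18.8 in the control. Myl4, the atrial essential light chain, had 262 and 150, above 90.2 and 83.2. Both atrial chains were thus higher with either seed family mimic than with the other libraries, and miR-93 gave the higher Myl7 and miR-106b the higher Myl4, at log2 ratios of 0.93 (95% exact interval 0.89 to 0.98) and -0.81 (-0.87 to -0.75). Myl2, the ventricular regulatory chain, had 7223 under miR-106b against 4994 under miR-93, beside 3250 under miR-25 and 6838 in the control. Over 11 atrial genes above the limit, 5 were higher (45.5%, against 7.30% of all genes). Lower were 2 (18.2%, against 8.21%), namely Nppa and Myl4, and the median log2 ratio was 0.35. Stard10, a lipid transfer protein, was among the higher ones at 3.16 RPKM under miR-93 against 2.26 under miR-106b.

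Many ion channel and coupling genes were higher with miR-93, but the lowest ratio of all genes compared was that of a channel subunit outside the list. Of 16 genes of the heart ion channel list above the limit, 8 were higher with miR-93 and none was lower. Of all genes compared, 7.30% were higher and 8.21% lower. In the list, 15 genes had a ratio above 1, and the median log2 ratio was 0.37. Scn3b, a sodium channel beta subunit that the list does not hold and that was named after its values were seen, had 14.1 RPKM under miR-106b against 1.49 under miR-93, beside 24.6 under miR-25 and 22.8 in the control, a log2 ratio of -3.24 (95% exact interval -3.49 to -3.01). Gja1, which encodes the gap junction protein connexin 43, had an RPKM of 71.7 under miR-106b against 110 under miR-93, beside 74.6 under miR-25 and 71.7 in the control. Scn4b, another sodium channel beta subunit, had 7.43, 12.4, 0.0773 and 1.87 in the same order, and Kcnh2, the channel of the rapid delayed rectifier current, 5.85, 9.08, 3.03 and 6.22. For these 3 members of the list the miR-93 library was the highest of the 4, at log2 ratios of 0.62, 0.74 and 0.63. Kcnd3, which carries the transient outward current, was near the limit, at 1.61 RPKM under miR-93 against 1.05 under miR-106b. Members above 1.0 RPKM in 1 library only were Kcne1, at 2.47 RPKM under miR-106b against 0.814 under miR-93, and Kcnk3 and Hcn2, at 1.07 and 1.18 under miR-93 against 0.689 and 0.900 under miR-106b. In calcium handling, 3 of 24 genes were higher and 3 lower (12.5% each, against 7.30% and 8.21% of all genes). Besides Casq1, the lower ones were Casq2, the cardiac calsequestrin, at 445 RPKM under miR-106b against 301 under miR-93, and Cacna2d1, an L-type channel subunit, at 23.5 and 14.9. Trdn, which anchors calsequestrin, was higher, at 18.5 RPKM with miR-93 against 13.7.

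The other leading genes on the higher side were Lrrc10, a cardiac leucine-rich repeat protein, at 105.95 RPKM under miR-93 against 50.9 under miR-106b, 27.7 under miR-25 and 48.3 in the control. Arrdc3, an arrestin-domain protein, was at 30.9 and 16.7 with the first pair of mimics. Sphkap, an anchoring protein of kinase A, was at 26.0 and 14.2. For Lrrc10 and Sphkap the miR-106b library lay within 1.3-fold of the control, and the miR-93 library stood above both. Epha3, an ephrin receptor, had 23.8 RPKM with miR-93 against 13.5, Lypd1 18.9 against 10.8, and Adamtsl2, a matrix protein, 17.7 against 10.2. The remaining names of the 12 were predicted or unannotated genes (AABR07015081.2, LOC100911101, RGD1565131 and A930016O22Rik). AABR07015081.2 had the largest ratio of the 12, a log2 value of 1.32 from 12.9 RPKM under miR-106b against 32.2 under miR-93, although the control had 251.1 and miR-25 had 126.

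**Figure D3:**
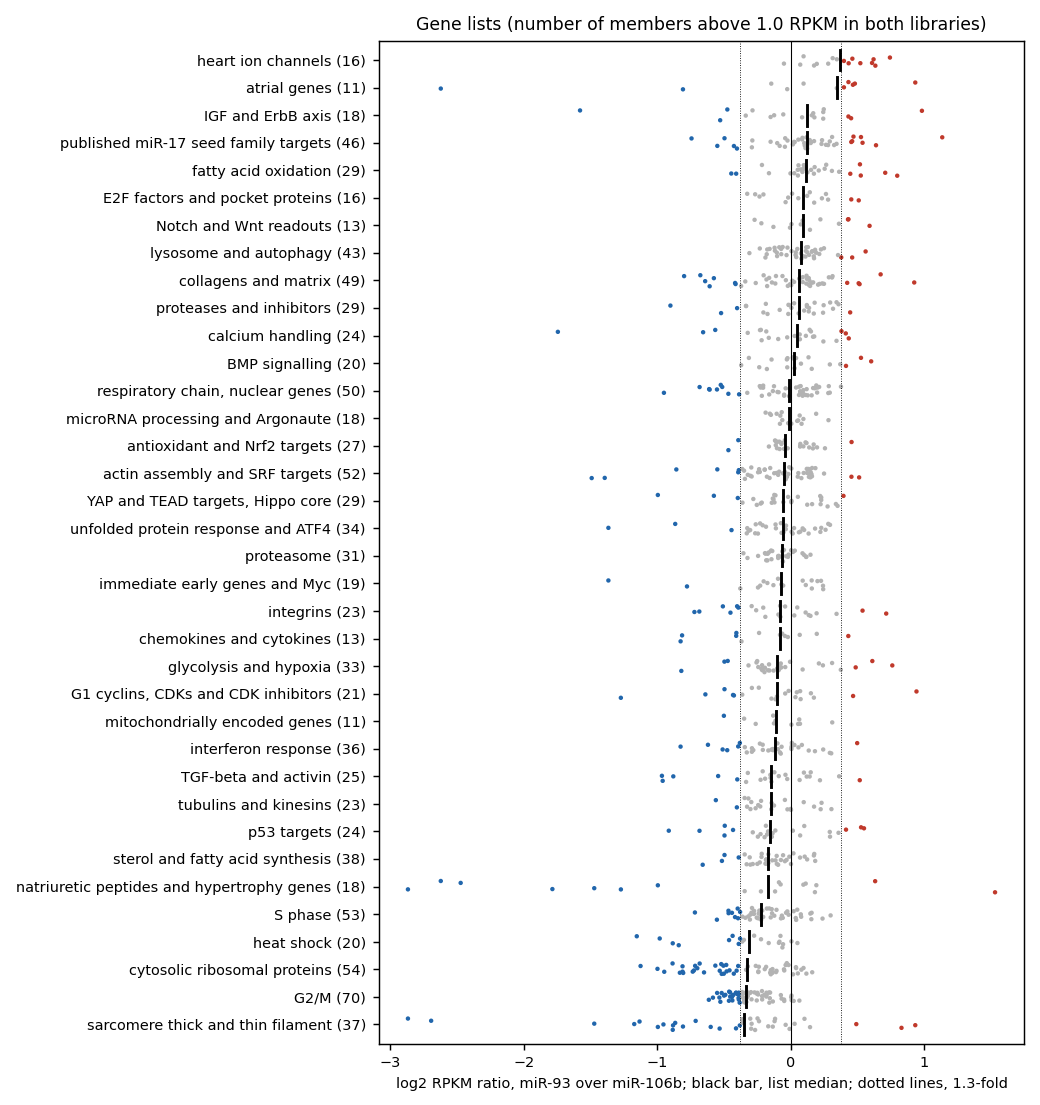
Log2 RPKM ratio of miR-93 over miR-106b (horizontal axis) of each member of the 36 process lists, with 1 point per gene above 1.0 RPKM in both libraries, a black bar at each list's median and dotted lines at 1.3-fold. Sarcomere, G2/M and cytosolic ribosomal protein genes have the lowest medians (-0.35, -0.33 and -0.33), heart ion channel and atrial genes the highest (0.37 and 0.35), and no microRNA processing or proteasome gene lies beyond the dotted lines.

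Several heat shock genes were lower with miR-93. Of 20 heat shock genes, 8 were lower (40.0%, against 8.21% of all genes) and none higher, with a median log2 ratio of -0.31. Among the 7 small heat shock proteins of the list, 5 were lower, while Hspb2 at 213 RPKM with miR-93 against 227 and Hspb7 at 59.7 against 72.2, both named after their values were seen, stayed within 1.3-fold. Cryab, the crystallin that guards desmin and titin, had an RPKM of 745 under miR-106b against 404 under miR-93, beside 589 under miR-25 and 880 in the control. Hspb3 had 95.1, 42.8, 134 and 133 in the same order, and Hspb8, the partner of Bag3 in chaperone-assisted autophagy, 43.7, 22.1, 30.5 and 53.2. All 3, like Hspb6 at 12.4 RPKM under miR-93 against 22.1 under miR-106b, had their lowest value with miR-93. Of 34 genes of the unfolded protein response, 3 were lower (8.82%, near the 8.21% of all genes) and none higher: Atf3, a stress-induced transcription factor, at 1.67 RPKM under miR-93 against 4.31 under miR-106b; Ppp1r15a, which dephosphorylates eIF2-alpha, at 6.95 and 12.7; and Sdf2l1 at 11.7 and 16.0. Ier3, an immediate early gene, was at 12.7 and 21.8. It and Atf3 were the only members of 19 immediate early genes past 1.3-fold (10.5% lower, near the 8.21% of all genes).

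Most cell division genes had a ratio below 1, by small steps, and a part of them passed 1.3-fold. Of 70 G2/M genes, 24 were lower (34.3%, against 8.21% of all genes) and none higher, 65 had a ratio below 1, and the median log2 ratio was -0.33 with a range from -0.61 to 0.06. Of 53 S phase genes, 9 were lower (17.0%) and none higher, 42 had a ratio below 1, and the median was -0.22. All these lower genes were beyond counting error. Prc1, which bundles microtubules of the central spindle, had an RPKM of 58.8 under miR-106b against 39.2 under miR-93, beside 11.0 under miR-25 and 34.7 in the control. Cdca3, which promotes entry into mitosis, had 22.8, 14.9, 3.96 and 12.1 in the same order. For both, miR-106b gave the highest value and miR-93 lay above the control and miR-25. Arhgap11a, a GTPase-activating protein, had 16.8 RPKM under miR-106b against 11.4 under miR-93, and Troap, a spindle protein, 2.89 and 2.00. Among S phase genes, Gins1, a subunit of the replicative helicase, had 9.89 and 6.02, Fen1, which processes Okazaki fragments, 12.6 and 9.08, Rpa3, of the single-strand binding complex, 15.1 and 10.3, and Chaf1b, a histone chaperone, 3.40 and 2.47.

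Promoter sequence was set beside these groups, because G2/M genes are known to share the CHR element (TTTGAA) and CCAAT boxes, and muscle genes the CArG box bound by SRF and the MCAT element (CATTCC) bound by TEAD factors. RefSeq promoters on build GRCr8, from 250 bases before to 50 after the start, were searched on both strands. TTTGAA was present in 16 of 23 promoters of the G2/M genes past 1.3-fold (69.6%), in 24 of 36 of the other G2/M genes compared (66.7%), in 11.4% of the promoters of 7403 genes compared and in 18.1% of all 24206 promoters. The element was thus as common among the G2/M genes that stayed within 1.3-fold. CCAAT was in 16 of the 23 (69.6%), in 28 of the 36 (77.8%), in 38.2% of the promoters of genes compared and in 37.8% of all. A CArG box was in 2 of 12 promoters of the sarcomere genes past 1.3-fold, Acta1 and Actc1, in 1.31% of the promoters of genes compared and in 1.65% of all. These 12 held lower genes and also higher ones such as Myh6. No such share was taken for the sarcomere genes within 1.3-fold, so whether the box separates the 2 groups was not tested. Of the 12 leading lower genes, 9 had a promoter in the table. Among these, CATTCC was in those of Nppb and Acta1, in 11.0% of the promoters of genes compared and in 13.7% of all. The GATA motif AGATAA was in that of Nppb, in 5.39% of the promoters of genes compared and in 11.2% of all. Of the 12 leading higher genes, 7 had a promoter in the table. Among these 7, AGATAA was in 2, those of Lrrc10 and Epha3, and CATTCC in 0. Windows of 300 bases are shown for 1 gene pair of each group, with capitals for the CArG box and MCAT in Acta1, MCAT and GATA in Nppb, and CHR and CCAAT in Prc1 and Top2a, each on either strand. They lie, in this order, at chr19:68784145-68784444 on the minus strand, chr5:163699758-163700057 on the plus strand, chr1:143659231-143659530 on the plus strand and chr10:84473044-84473343 on the minus strand.
Acta1: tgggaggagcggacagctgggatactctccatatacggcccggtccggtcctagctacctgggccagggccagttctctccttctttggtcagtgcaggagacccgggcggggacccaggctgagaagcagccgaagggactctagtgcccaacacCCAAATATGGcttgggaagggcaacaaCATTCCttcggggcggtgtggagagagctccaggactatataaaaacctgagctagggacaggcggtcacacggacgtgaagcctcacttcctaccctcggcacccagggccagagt
Nppb: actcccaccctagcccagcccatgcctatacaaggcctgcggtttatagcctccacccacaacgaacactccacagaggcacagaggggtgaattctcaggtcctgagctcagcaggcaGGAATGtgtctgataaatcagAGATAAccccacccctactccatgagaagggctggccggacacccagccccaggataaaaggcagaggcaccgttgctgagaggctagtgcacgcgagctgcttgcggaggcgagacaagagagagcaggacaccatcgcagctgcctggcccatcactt
Prc1: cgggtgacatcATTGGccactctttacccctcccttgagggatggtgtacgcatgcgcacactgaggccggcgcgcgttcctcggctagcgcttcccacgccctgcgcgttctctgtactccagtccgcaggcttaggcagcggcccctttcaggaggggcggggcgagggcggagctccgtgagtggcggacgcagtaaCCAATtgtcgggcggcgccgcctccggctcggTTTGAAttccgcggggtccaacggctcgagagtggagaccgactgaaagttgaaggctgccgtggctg
Top2a: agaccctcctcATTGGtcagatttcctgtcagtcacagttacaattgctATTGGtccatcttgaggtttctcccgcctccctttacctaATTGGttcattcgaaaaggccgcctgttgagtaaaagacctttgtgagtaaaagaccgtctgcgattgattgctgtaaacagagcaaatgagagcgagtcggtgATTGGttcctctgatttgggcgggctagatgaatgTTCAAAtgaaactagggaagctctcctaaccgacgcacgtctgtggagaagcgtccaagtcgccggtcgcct
Top2a, the topoisomerase that separates sister chromatids, was chosen for this after its values were seen and had 54.5 RPKM under miR-106b against 39.6 under miR-93, beside 10.0 under miR-25 and 29.8 in the control. A match is a description of letters, and whether a factor binds there was not measured.

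G1 regulators did not follow one direction. The list of cyclins, CDKs and CDK inhibitors also held Gadd45a, Gadd45b, Gadd45g, Cdc25a and Wee1. Of its 21 members above the limit, 5 were lower (23.8%), 2 higher (9.52%) and 14 within 1.3-fold, against 8.21% lower and 7.30% higher of all genes. The median log2 ratio was -0.10. Cdkn1c, the inhibitor p57, had an RPKM of 5.13 under miR-106b against 9.86 under miR-93, against 1.57 under miR-25 and 1.501 in the control. Both mimics thus had more Cdkn1c RNA than the control, and miR-93 the most, with a log2 ratio of 0.94 (95% exact interval 0.78 to 1.11). Cdkn1a, the inhibitor p21 and a published target of the family, had 9.90 under miR-106b against 7.02 under miR-93, beside 31.5 under miR-25 and 9.61 in the control, a log2 ratio of -0.50 (-0.66 to -0.33). Cdkn2b, the inhibitor p15, had 3.28, 2.10, 8.34 and 3.88 in the same order. Cdkn2a was above 1.0 RPKM only with miR-106b, at 1.35 against 0.891 from 56 and 34 reads. The stress sensors Gadd45g and Gadd45a were lower, with 41.5 and 17.2 RPKM and 23.3 and 17.3 RPKM with miR-106b and miR-93, whereas Gadd45b was at 11.8 and 13.1.

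Among the D cyclins, Ccnd1 had 7.74 RPKM under miR-106b against 5.76 under miR-93, both under 18.6 in the control and 28.4 with miR-25. Ccnd2 had 65.1 and 53.2, under 98.5 and 196, and Ccnd3 42.0 and 47.3, near 45.0 in the control. Ccnd1 was past 1.3-fold between the 2 mimics, at a log2 ratio of -0.43, and Ccnd2 was not, at -0.29. Ccng2, a cyclin linked to arrest, was higher, with 6.28 RPKM under miR-93 against 4.54 under miR-106b. The kinases Cdk2, Cdk4, Cdk6 and Cdk7 had log2 ratios of -0.14, 0.04, -0.24 and -0.02, the inhibitor Cdkn1b 0.07, Cdkn2c -0.36, the cyclins Ccne1, Ccne2 and Ccng1 0.05, -0.11 and 0.07, the phosphatase Cdc25a -0.10 and the kinase Wee1 -0.04, none of them past 1.3-fold.

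E2F factors and pocket proteins differed little, with 2 of 16 higher (12.5%, against 7.30% of all genes), none lower and a median log2 ratio of 0.09. Rbl2, the pocket protein p130, had an RPKM of 4.56 under miR-106b against 6.25 under miR-93, beside 7.56 under miR-25 and 5.68 in the control, a log2 ratio of 0.45 (95% exact interval 0.30 to 0.60). Tfdp2, a dimer partner of E2F factors, had 3.76, 5.35, 2.78 and 3.42 in the same order. E2f1 was at 2.02 under miR-106b against 2.45 under miR-93, both under 3.63 in the control, and E2f5, a published target of the family, at 5.93 and 6.17 beside 6.44. The log2 ratios of the others lay between -0.33 for Lin54 and 0.26 for E2f3, with Rb1 at 0.14, Rbl1 at 0.12, Tfdp1 at 0.18, E2f7 at 0.23, E2f8 at -0.23, E2f4 at -0.04, E2f6 at 0.01, Lin9 at -0.02, Lin37 at -0.20 and Lin52 at -0.27.

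The published targets of the miR-17 seed family bear on what a shared seed has in common, although a mimic that lowers a target can lower it to any degree and the sites themselves were not analysed here. Of 46 members above the limit, 7 were higher with miR-93 (15.2%, against 7.30% of all genes), 5 lower (10.9%, against 8.21%) and 34 within 1.3-fold, 33 had a ratio above 1, and the median log2 ratio was 0.12. Zfp367, a zinc finger factor, had an RPKM of 9.11 under miR-106b against 5.44 under miR-93, beside 9.91 under miR-25 and 16.8 in the control. Rhoc, a small GTPase, had 33.9, 23.2, 100.1 and 90.9 in the same order, and Btg3, an antiproliferative factor, 18.5, 13.98, 45.2 and 30.0. In all 3 both seed family mimics lay under the control and miR-93 lay lowest, at log2 ratios to miR-106b of -0.74, -0.55 and -0.40. Dab2, an endocytic adaptor, had the same order, at 28.9 and 23.7 against 42.7, with a log2 ratio of -0.29.

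On the other side stood Epha4, an ephrin receptor, with 3.16 RPKM under miR-106b against 6.94 under miR-93, beside 0.897 under miR-25 and 2.56 in the control, a log2 ratio of 1.14 (95% exact interval 0.99 to 1.28). Bcl2l11, the proapoptotic protein Bim, had 4.22, 6.57, 1.27 and 1.83 in the same order. For both, the library of either mimic was above the control. Itgb8, an integrin, had 1.74 under miR-106b against 2.53 under miR-93, under 3.33 in the control, and Mfn2, which fuses mitochondria, 10.2 and 12.7, under 20.9. Mfn2 stayed within 1.3-fold, at a log2 ratio of 0.33. The other targets past 1.3-fold on this side were Bambi, a decoy receptor, Fbxo31, a ubiquitin ligase subunit, and Ulk1, which starts autophagy, at log2 ratios of 0.53, 0.47 and 0.46, together with Rbl2. For Ulk1 and Fbxo31 the RPKM with miR-106b was 1.15 and 1.24, close to the limit.

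Targets within 1.3-fold of each other could still lie far from the control. Zbtb4, a methyl-DNA binding repressor, had 2.06 RPKM under miR-106b against 2.10 under miR-93 against 5.45 in the control, Tgfbr2, a TGF-beta receptor, 8.36 and 9.27 against 16.8, App, the amyloid precursor, 49.4 and 54.9 against 86.2, and Atg16l1, of autophagosome formation, 3.39 and 3.83 against 6.75. Zfyve26 was at 1.32 and 1.55 against 2.58. Tp53inp1 was at 28.9 and 31.0 against 23.5. The log2 ratios of the remaining members lay between -0.15 for Smad7 and 0.34 for Timp2. Among them were -0.10 for Vegfa, -0.08 for Txnip, -0.04 for Mapre1, -0.02 for Map3k2, 0.02 for Ankrd50, 0.03 for Bmpr2, 0.09 for Arid4b, 0.10 for Mylip, 0.11 for Sqstm1, 0.12 for Itch, Stat3 and Lats2, 0.14 for Pkd2, 0.23 for Ncoa3, 0.29 for Ei24 and 0.31 for Hif1a. None of the 18 microRNA processing and Argonaute genes above the limit was past 1.3-fold, with log2 ratios from -0.19 for Tnrc6a to 0.28 for Mov10.

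**Figure D4:**
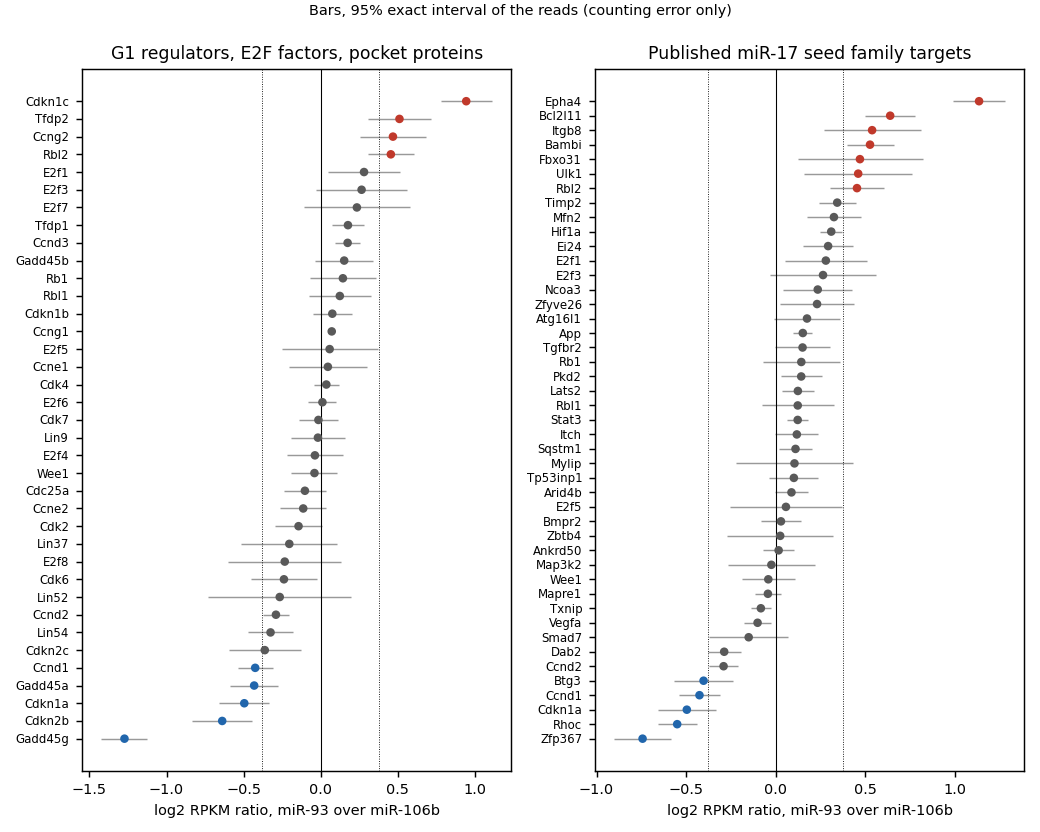
Log2 RPKM ratio of miR-93 over miR-106b (horizontal axis) for the G1 regulators, E2F factors and pocket proteins (left) and for the published miR-17 seed family targets (right), with bars for the 95% exact interval of the reads, which covers counting error only, and dotted lines at 1.3-fold. Cdkn1c (0.94) and Gadd45g (-1.27) lie at the ends on the left, Epha4 (1.14) and Zfp367 (-0.74) on the right, and 33 of the 45 targets shown lie between the dotted lines.

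In p53 signalling, 5 of 24 target genes were lower (20.8%) and 3 higher (12.5%), against 8.21% and 7.30% of all genes. Plk2, a kinase of centriole duplication, had an RPKM of 120 under miR-106b against 63.9 under miR-93, beside 72.3 under miR-25 and 178 in the control, and Btg2, an antiproliferative gene, 29.2, 18.2, 17.6 and 34.0. Sesn1, a sestrin, and Perp, a desmosome protein, were the leading higher ones, at 6.68 and 49.1 RPKM with miR-93 against 4.57 and 34.0 with miR-106b.

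Growth factor genes of the TGF-beta and activin group were lower with miR-93 for 5 of 25 members (20.0%, against 8.21% of all genes) and higher for 1. Tgfb2, a ligand, had an RPKM of 35.7 under miR-106b against 18.3 under miR-93, beside 79.9 under miR-25 and 61.8 in the control, and Inhba, the activin A subunit, 14.4, 7.84, 12.1 and 17.9. The activin inhibitors Fstl3 and Fst were lower as well. Fstl3 had 14.99, 7.68, 60.4 and 11.4 in the same order, so that miR-106b was above the control and miR-93 under it, while Fst had 3.90 under miR-106b against 2.67 under miR-93. The log2 ratios were -0.96, -0.88, -0.96 and -0.54 for Tgfb2, Inhba, Fstl3 and Fst. Hbegf, a ligand of ErbB receptors, had 17.3 RPKM under miR-106b against 5.80 under miR-93, beside 12.9 under miR-25 and 32.8 in the control, a log2 ratio of -1.58 (95% exact interval -1.75 to -1.41). Other ligands of these receptors were above 1.0 RPKM only with miR-106b, Areg at 1.74 against 0.482 and Ereg at 1.07 against 0.803. In the insulin-like growth factor axis, the receptors Igf2r and Insr were lower, at 67.3 and 4.24 RPKM under miR-93 against 97.1 and 5.89 under miR-106b, and the binding protein Igfbp3 was higher, at 4.47 and 2.26. Over the whole IGF and ErbB list, 3 of 18 were higher and 3 lower (16.7% each, against 7.30% and 8.21% of all genes).

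In the BMP list and in the list of Notch and Wnt readouts, the genes past 1.3-fold were all higher with miR-93, 3 of 20 and 3 of 13. These higher genes included Bmp4, a ligand, at 3.54 RPKM under miR-93 against 2.33 under miR-106b, Smad6, an inhibitory Smad, at 15.8 and 11.8, and Jag1, a Notch ligand, at 19.4 and 12.9. Jag2, another Notch ligand, was at 2.75 and 2.04 and Dkk3, of the Dickkopf family of the Wnt pathway, at 43.3 and 32.1, while Bmp6 at 6.09 and 4.71 and Wnt5a at 2.89 and 2.25 stayed within 1.3-fold. Above 1.0 RPKM only with miR-93 were Sfrp2, Nkd1 and Tcf7l2, at 1.69, 1.05 and 1.01. Of 29 YAP and TEAD target and Hippo genes, 3 were lower (10.3%, against 8.21% of all genes): Ankrd1, a titin-binding stress protein, at 1736 RPKM under miR-106b against 871 under miR-93, beside 1976 under miR-25 and 2753 in the control, Ctgf, a matricellular protein, at 81.4, 54.6, 100.2 and 103, and Amotl1 at 5.36 and 4.07 with the first pair. F3, tissue factor, was the 1 higher member, at 4.44 and 3.38.

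In actin assembly and among SRF targets, 6 of 52 genes were lower (11.5%, against 8.21% of all genes) and 2 higher. Cnn1, calponin, a regulator of smooth muscle contraction, had an RPKM of 128 under miR-106b against 45.6 under miR-93, beside 278 under miR-25 and 88.8 in the control. It was above the control with miR-106b and under it with miR-93. Cfl2, the muscle cofilin, had 84.6, 46.7, 132 and 155. Among smooth muscle markers, 2 of 12, Cnn1 and Cspg4, were lower (16.7%, against 8.21% of all genes). The 1 higher marker (8.33%, near the 7.30% of all genes) was Myh11, the smooth muscle myosin, at 10.4 RPKM with miR-93 against 7.62. The list median was 0.13. Among tubulin and kinesin genes, Map1a and Tubb4b were lower, at 5.00 and 144 RPKM against 7.37 and 190 with miR-106b.

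Metabolic lists held members on both sides. In fatty acid oxidation 5 of 29 were higher (17.2%) and 2 lower (6.90%), against 7.30% and 8.21% of all genes: Hadh, of the mitochondrial beta-oxidation spiral, had an RPKM of 9.14 under miR-106b against 15.9 under miR-93, beside 7.34 under miR-25 and 8.56 in the control, and Cpt1a, which loads fatty acids onto carnitine, 7.04, 11.5, 6.24 and 6.02. Both were highest with miR-93, as was Acsl1 at 13.4 against 9.35 with miR-106b, and Ppara, a nuclear receptor that drives this pathway, was at 2.58 against 1.79 and 2.59 in the control. In glycolysis 3 of 33 were higher and 3 lower (9.09% each, near the shares of all genes). The phosphofructokinases Pfkp and Pfkl were lower, at 67.3 and 14.6 RPKM with miR-93 against 119 and 20.6, while the muscle enolase Eno3 and the aldolase Aldoc were higher, at 67.5 and 28.8 against 44.2 and 17.0. In sterol synthesis 4 of 38 were lower (10.5%, near the share of all genes) and none higher, led by Idi1 at 12.9 against 20.4 and Hsd17b7 at 1.07 against 1.53, with Fdps at 35.8 against 50.4 and Stard4 at 5.13 against 6.72. Antioxidant genes had 2 of 27 lower (7.41%, near the share of all genes), Gpx3 at 36.3 against 50.2 and Gclc at 10.9 against 14.4, and 1 higher, Gstm1 at 8.76 against 6.39.

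Ribosomal protein genes were lower with miR-93 in 26 of 54 members (48.1%, against 8.21% of all genes), with none higher and a median log2 ratio of -0.33, and short genes were lower as well. Rps15a had an RPKM of 396 under miR-106b against 198 under miR-93, beside 163 under miR-25 and 320 in the control, and Rpl27 had 212, 110, 90.5 and 155. Over all ribosomal protein genes recognised by their symbol, the median log2 ratio was -0.70 for 47 genes shorter than 600 bases and -0.14 for 34 longer ones. The length is that of the gene model behind the RPKM. For other genes it was -0.13 for 679 shorter genes and 0.01 for 10631 longer ones, and 29.0% of the shorter and 6.53% of the longer were lower with miR-93. Of the 50 nuclear genes of the respiratory chain, 14 were shorter than 600 bases. In this list 9 were lower (18.0%, against 8.21% of all genes) and none higher, and the median was -0.01. They were led by Ndufa1, Ndufa2, Uqcrb and Uqcrq at log2 ratios of -0.95, -0.68, -0.61 and -0.61. Of 11 mitochondrially encoded genes, only Mt-nd3 was past 1.3-fold, at 321 RPKM with miR-93 against 454. Rpl38 had the lowest ratio of its list but only few reads, with an interval from -2.53 to 0.13. The part of gene length in these differences was not tested. Ribosomal protein genes have many near-identical pseudogene copies, and how reads matching several copies were counted is not given in the sources used here, so their values are uncertain.

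**Figure D5:**
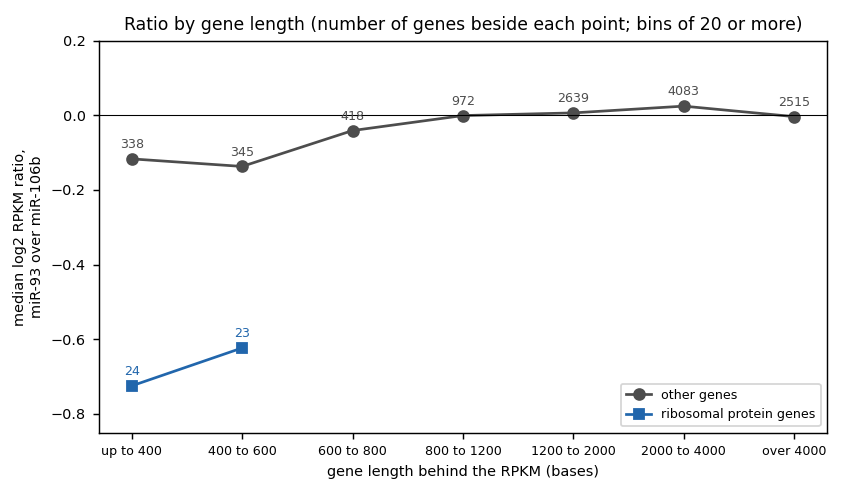
Median log2 RPKM ratio of miR-93 over miR-106b (vertical axis) by gene length in bases (horizontal axis, 7 bins) for ribosomal protein genes and for all other genes, with the number of genes beside each point and bins of under 20 genes left out. Ribosomal protein genes lie at -0.72 (24 genes) and -0.62 (23 genes) in the 2 shortest bins, other genes at -0.12 (338) and -0.14 (345) there and near 0 from 800 bases on.

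The matrix lists held both directions, with 5 of 49 collagen and matrix genes higher (10.2%) and 7 lower (14.3%), against 7.30% and 8.21% of all genes. Lama4, a laminin chain, had an RPKM of 50.2 under miR-106b against 31.4 under miR-93, beside 50.8 under miR-25 and 67.2 in the control, and Col15a1, of the basement membrane, 9.49, 5.46, 6.75 and 21.6. Fmod, which regulates collagen fibrils, and Mfap2, of microfibrils, were higher, at 2.18 and 5.13 RPKM with miR-93 against 1.15 and 3.22. Of 23 integrins, 6 were lower (26.1%) and 2 higher (8.70%), against 8.21% and 7.30% of all genes. Itga7, the laminin receptor of muscle, had 12.8 RPKM under miR-106b against 7.73 under miR-93, against 27.2 in the control, Itga5, the fibronectin receptor, 33.0 and 20.5, and Itga11 1.42 and 2.33. Among proteases 3 of 29 were lower (10.3%, near the share of all genes) and 1 higher, with Plau, the urokinase, at 1.15 RPKM with miR-93 against 2.15, Mmp12 at 1.45 against 2.08, Mmp16 at 2.37 against 3.13, and Adamts2 at 4.01 against 2.95.

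Interferon and cytokine genes held members on both sides. Of 36 interferon response genes, 6 were lower (16.7%, against 8.21% of all genes) and 1 higher: Oas1i, a sensor of double-stranded RNA, had an RPKM of 6.15 under miR-106b against 3.47 under miR-93, beside 1.70 under miR-25 and 2.87 in the control, Ifit1 had 5.17, 3.36, 2.73 and 4.46, Isg15, a ubiquitin-like protein, 6.63, 4.65, 3.16 and 4.67, and Stat2, a transcription factor of this response, 4.22, 5.95, 4.23 and 4.35. Il1rl1, the receptor of interleukin 33, was at 17.1 RPKM with miR-93 against 30.2, and 14.5 in the control. Of 13 chemokine and cytokine genes, 4 were lower (30.8%) and 1 higher (7.69%), against 8.21% and 7.30% of all genes. Among them were Cxcl10 at 1.13 against 1.99, Cxcl16 at 5.11 against 6.78 and Cxcl12 at 1.96 against 1.46.

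Genes of protein turnover differed little. None of 31 proteasome genes was past 1.3-fold, with log2 ratios from -0.35 for Psmd8 to 0.15, and 3 of 43 lysosome and autophagy genes were higher (6.98%, near the 7.30% of all genes) and none lower. These were Fbxo32, the muscle ubiquitin ligase atrogin-1, at 15.3 RPKM under miR-93 against 10.4 under miR-106b, Ulk1, and Ctsc, cathepsin C, at 27.7 and 21.3.

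Marker lists of most other cell types the cultures could hold had medians above 0, while that of cardiomyocyte markers, like that of the sarcomere list, was below 0. Their part in the lower sarcomere values was not tested. Of 11 fibroblast markers above the limit, 2 were higher (18.2%, against 7.30% of all genes) and 1 lower (9.09%, near the 8.21% of all genes). Postn and Tcf21 were higher, at 68.4 and 15.9 RPKM with miR-93 against 47.8 and 12.1, and Thy1 was lower, at 8.16 against 11.1. Of the 11 markers, 9 had a ratio above 1, and the median log2 ratio was 0.23. Of 11 mesothelial and epicardial markers, 5 were higher (45.5%) and 1 lower (9.09%), against 7.30% and 8.21% of all genes. They were led by Aldh1a2, which makes retinoic acid, at 12.1 against 6.79, and Bnc1 at 1.90 against 1.25. The median of 0.30 became -0.03 for the markers above 10 RPKM in both libraries. Among cardiomyocyte markers, 4 of 16 were lower (25.0%, against 8.21% of all genes), including Csrp3, Tcap and Myl2. Higher were 2 (12.5%, against 7.30%), including Myh6, and the median was -0.17. Of 10 macrophage and leukocyte markers above the limit, none was past 1.3-fold and 9 had a ratio above 1, with a median of 0.21. The endothelial median was 0.16, that of smooth muscle and pericyte markers 0.13 and that of 4 Schwann and neural markers -0.11. Of 6 endothelial markers Npr3 was higher and Egfl7 lower (16.7% each, against 7.30% and 8.21% of all genes). The interval for Egfl7 was -0.94 to 0.06. Of the listed markers of any cell type, Cldn5, an endothelial tight junction gene, was listed at 0 with miR-106b and with cel-miR-67.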

How the data were processed

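RNA of neonatal rat cardiomyocytes transfected with 1 of 4 mimics was sequenced, with 1 library per mimic. Per the labels and the methods, the authors trimmed the reads with Cutadapt, aligned them with STAR 2.7 to Rnor 6.0 and deposited RPKM values made with edgeR. The counting program is not given in the sources used here. Whole reads, which are counts rounded by the authors, were recovered from the RPKM values of all 15731 genes. They served for 95% exact (Clopper-Pearson) intervals, which cover counting error only. The RPKM ratio of miR-93 over miR-106b was taken for genes with an RPKM above 1.0 in both libraries, without a pseudocount, and a gene was called higher or lower past 1.3-fold. With 1 library per mimic there was no test and no p-value. Lists were counted over symbols listed once, and 176 symbols listed more than once were left out of them. Some genes stand in several lists, such as Myl7 in the sarcomere and atrial lists, and are counted in each.

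Genes were named by rule: the 12 largest ratios in each direction above 10 RPKM in both libraries, up to 4 members per list with the largest difference, all G1 regulators, E2F and pocket proteins and published seed family targets, list members above 1.0 RPKM in 1 library only, and genes nearest that limit. Corin, Top2a, Actc1, Cldn5, Scn3b, Hspb2 and Hspb7 were named after their values were seen. The members and lists were chosen with earlier results of these data known. Python 3.11.15, numpy 2.4.6, scipy 1.17.1 and pandas 2.3.3 were used, and the steps were tested on simulated data. Of the seed family target list, 1 member is counted but not reported here.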

Additional observations from a re-analysis of the deposited data

How the results depend on the processing

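The counts of higher and lower genes were 155 and 425 above 10 RPKM in both libraries, 2093 and 2135 with any value above 0, 287 and 411 past 1.5-fold, and 31 and 88 past 2-fold. A pseudocount of 1 left 507 higher genes. Under the other alternatives both counts stayed within 1.5 times, including 593 and 770 above 2.0 RPKM and 821 and 939 with TMM scaling of the recovered reads. With the reads on listed genes as library size, medians were -0.27 for G2/M, 0.18 for the published seed family targets, -0.0379 for glycolysis, -0.0028 for the proteasome, 0.14 for lysosome and autophagy and 0.19 for smooth muscle. Among genes of 600 bases or more, an alternative chosen after seeing the data, 763 were higher and 700 lower, so that the larger count changed sides. The ribosomal protein median there was -0.14. The median of 13 lists changed sign under some alternative, the largest of these being 0.30 for mesothelial markers. Of 2301 values of 246 named genes under the alternatives, 0 reversed and 41 moved by more than their interval. No reversal of a gene past 1.3-fold was possible, so the 0 carries no information. The RPKM limits left each ratio as it was, and a pseudocount cannot change its sign. The scalings shifted log2 ratios by about 0.06 or less. No paired analysis was possible because each mimic had 1 library, and leaving out a replicate was not possible for the same reason. Classes of genes by seed site were not run, since no 3′ untranslated sequences were analysed here.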

Other observations

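Genes above 1.0 RPKM in 1 library only, and so outside the comparison, held some of the widest gaps, and the following were chosen after their values were seen. Stmn4, a stathmin of microtubule turnover, had an RPKM of 8.49 with miR-106b and 0.26 with miR-93. Myh3, the embryonic skeletal myosin heavy chain, had 2.68 and 0.17, and Bdkrb2, a bradykinin receptor, 2.34 and 0.26. In the other direction, Gper1, a membrane estrogen receptor, had 0.47 with miR-106b and 2.43 with miR-93.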
